A study of Mus musculus with 16 samples.

Results

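The 10 genes of the actin cytoskeleton and the fibroblast matrix described here, across 16 mouse pluripotent cell lines, are 10 of the 22552 genes in the expression table. They are Tagln, Acta2, Cnn1, Cnn2, Myl9, Tpm1, Tpm2, Thy1, Lox and Postn. The genes were chosen from these same measurements, because they had been seen to move together from line to line, and so their own levels and differences are given as a description with no test. All 10 were found in the table, and all 10 were among the 13185 genes with a mean of at least 0.5 FPKM (fragments per kilobase of transcript and per unit of sequencing depth, a level already scaled for gene length) that were used for comparisons.

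Total RNA of each line was sequenced as 1 library. The 9 AN lines were nuclear transfer embryonic stem cells, made by placing nuclei of adipocyte progenitor cells into enucleated oocytes, and the 7 AI lines were induced pluripotent stem cells, made from the same kind of cell by doxycycline induction of the reprogramming factors it already carried. All 16 lines share the 129-M2rtTA background, in which a reverse tetracycline transactivator is expressed, and all come from progenitor cells of mice grown wholly from 1 earlier induced line. They were kept in medium with 15% serum and leukaemia inhibitory factor, at passage 5 to 7 except for GS32 at passage 13 and GS4 at passage 17. Each line is a clone of its own, so that n counts lines. The study further sorted lines by tetraploid complementation, a test of whether the injected cells alone can build a mouse, into full (F) and partial (P). AN20, AN15, AN9 and AN1 formed AN F (n = 4), and AN7, AN6, AN5, AN3 and AN2 formed AN P (n = 5). GS32, AI10, AI7 and AI3 formed AI F (n = 4), and GS9, GS4 and AI9 formed AI P (n = 3). Of these, GS32, GS9 and GS4 were older lines, whose F or P class the study took over from previous work. The study gives no complementation counts for them. The sample records themselves give only the derivation of a line and not F or P, which was matched by line name to the study's text. The records of GS32 and GS9 carry GS4 as their source, against their own titles, and the titles were followed.

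Contractile cells pull by sliding myosin along actin cables, and the first 7 of these genes encode parts of that machine or its regulators. Fibroblasts and smooth muscle cells use it to spread and to tension their surroundings, and they also secrete and cross-link the collagen matrix, which is where lysyl oxidase (Lox) and periostin (Postn) act. Undifferentiated pluripotent cells are usually grown on, or were derived on, a layer of mitotically inactive embryonic fibroblasts called feeders, which express these genes strongly. In this study, blastocysts were plated on feeders of embryonic fibroblasts from ICR mice to derive the AN lines. The genes had been proposed as a feeder signal. No library of feeder cells was analysed here, and so RNA from remaining feeder cells, RNA from differentiated cells of the line and expression by the pluripotent cells themselves cannot be told apart. In bulk RNA, fewer cells of a type and less RNA per cell cannot be told apart either.

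Pluripotency markers were expressed in the lines. All 21 pluripotency genes found in the table, of 22 listed, had a mean above 0.5 FPKM, a filter that 13185 of the 22552 genes passed. No library of other cells was analysed, so this does not test the pluripotent label of any line. Pou5f1, which encodes the core pluripotency factor Oct4, ranged from 615 FPKM in AI10 to 1222 FPKM in GS9. Depth, judged from the smallest steps between low values, was 0.96 to 1.26 times that of AN1, the sum of FPKM ran from 661973 in AI3 to 963434 in GS9, and the median of all tested genes differed by at most 0.063 log2 units between any 2 lines.

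The 10 genes lie at 10 separate places on 7 chromosomes. By the mm9 annotation, the build the deposited values were made on, Tagln is at chr9:45737711-45744141 on the reverse strand, Cnn1 at chr9:21903725-21914074 on the forward strand, Thy1 at chr9:43851467-43856662 on the forward strand and Tpm1 at chr9:66870397-66897213 on the reverse strand. Acta2 is at chr19:34315580-34329826 (reverse), Myl9 at chr2:156601156-156607394 (forward), Tpm2 at chr4:43527583-43536637 (reverse), Cnn2 at chr10:79451329-79458807 (forward) and Postn at chr3:54165031-54194961 (forward). Lox lies on a chromosome of its own. All 10 are protein-coding genes. Tagln overlaps Pcsk7 on the opposite strand, and since the library kit does not mark strand, reads from the overlap cannot be told apart; 1.04% of the 50-base windows of Tagln transcripts also occur in Pcsk7. Acta2 shares 0.404% of its windows with the cytoplasmic actin gene Actg1, and for the other 8 genes no window of 50 bases, the read length, occurred in the protein-coding transcripts of another gene.

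Promoter sequence is shown for 3 of the genes because contractile genes are known for a shared control element, the CArG box, which serum response factor binds together with myocardin-related coactivators. RefSeq promoter windows of 250 bases before to 50 after the transcription start (GRCm38.p6) were given for 7 of the 10 genes, and for Tagln, Thy1 and Lox there was no entry. Only the 250 bases before the start are printed, 5′ to 3′, with each CArG box, and each 10-base stretch that departs from a CArG box at 1 position, in capitals. The box reads the same way on both strands, so 1 search covered both. Positions count from -1 at the last base before the start. The Myl9 window is chr2:156775214-156775463 on the forward strand, the Cnn2 window chr10:79988350-79988599 on the forward strand and the Acta2 window chr19:34255374-34255623 on the reverse strand.
Myl9: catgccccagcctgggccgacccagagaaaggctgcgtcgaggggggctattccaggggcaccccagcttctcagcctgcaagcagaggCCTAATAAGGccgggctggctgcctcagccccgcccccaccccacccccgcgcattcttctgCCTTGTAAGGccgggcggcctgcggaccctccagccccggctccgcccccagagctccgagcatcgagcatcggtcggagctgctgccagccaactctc
Cnn2: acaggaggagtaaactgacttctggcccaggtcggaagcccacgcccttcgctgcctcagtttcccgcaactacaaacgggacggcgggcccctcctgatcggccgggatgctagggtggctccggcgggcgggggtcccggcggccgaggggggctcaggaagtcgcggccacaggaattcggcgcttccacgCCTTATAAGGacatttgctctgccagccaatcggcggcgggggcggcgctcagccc
Acta2: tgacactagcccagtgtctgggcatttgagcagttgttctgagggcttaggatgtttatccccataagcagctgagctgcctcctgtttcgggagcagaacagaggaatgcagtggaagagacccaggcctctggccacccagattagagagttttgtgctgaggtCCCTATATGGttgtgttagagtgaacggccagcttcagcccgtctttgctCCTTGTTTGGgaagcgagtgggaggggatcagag

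Myl9 held a full CArG box starting at -161 (CCTAATAAGG) and a near match at -99 (CCTTGTAAGG). Cnn2 held a full box at -56 (CCTTATAAGG). Acta2 held no full box but near matches at -84 (CCCTATATGG) and -34 (CCTTGTTTGG). Over the 300-base windows, 2 of the 7 genes had a full box, where 1.63% of 32851 mouse promoter windows had one, and 4 of the 7 (Myl9, Cnn2, Acta2 and Tpm1) had at least a near match, full boxes included, where 21.1% of all windows did. Cnn1, Tpm2 and both Postn windows held neither. The 7 genes had 8 windows, so these counts are of genes while the percentages are of windows. These matches describe letters in a short window and say nothing of whether the factor was bound in these lines.

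The 10 genes moved together. Across the 16 lines, Pearson r of log2(FPKM + 1) had a median of 0.834 over the 45 pairs, from 0.232 for Tpm1 and Lox to 0.988 for Acta2 and Myl9, and Spearman rho had a median of 0.800 (0.412 to 0.982). Of the 45 pairs, 31 (68.9%) had r of at least 0.7, compared with 3.47% of all pairs of tested genes, whose median r was 0.0041. The first principal component carried 79.7% of the variance of the 10 genes. For all tested genes it carried 28.6%, which is not a like baseline, since the share depends on the number of genes. The 10 genes were chosen for this pattern, and the correlations, over 16 points that each share 1 library and its depth, carry no p. The genes were also more variable than most. Their SD over lines had a median of 0.62 log2 units, which 3.35% of tested genes exceeded, and the highest line was a median of 5.05 times the lowest, compared with 1.99 times for the 12959 tested genes detected in every line.

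**Figure D1:**
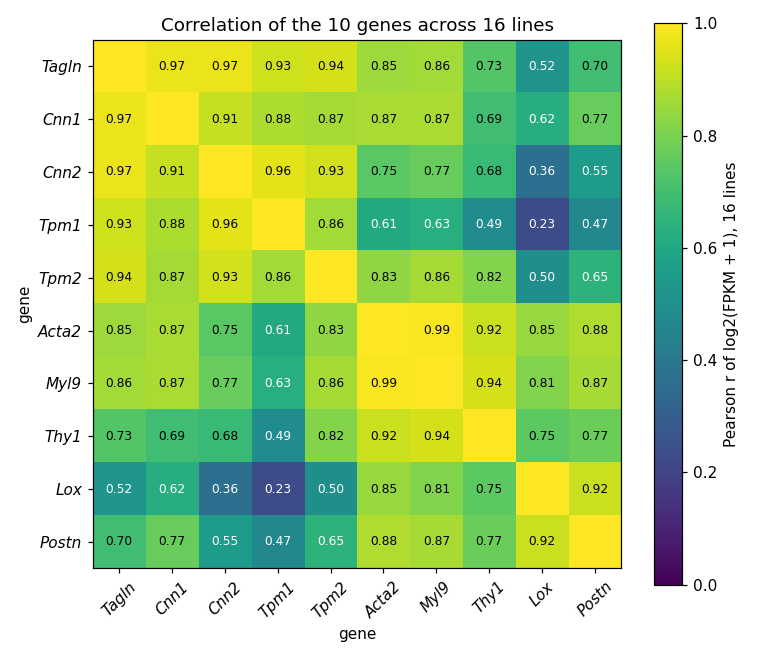
Pearson r of log2(FPKM + 1) between each 2 of the 10 genes over 16 lines, with colour from 0 to 1 and the value in each square. Values are high within Tagln, Cnn1, Cnn2, Tpm1 and Tpm2, within Acta2, Myl9 and Thy1, and between Lox and Postn, and lowest between Tpm1 and Lox (0.23).

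Smooth muscle actin, Acta2, and the regulatory light chain of its myosin, Myl9, were the most closely tied. Acta2 was at 243, 243, 348 and 432 FPKM in the AN F lines AN20, AN9, AN15 and AN1. It was at 300.4, 308, 394, 439 and 618 FPKM in the AN P lines AN5, AN2, AN6, AN7 and AN3. It was at 314, 429, 564 and 611 FPKM in the AI F lines AI7, AI3, AI10 and GS32, and at 116, 137 and 528 FPKM in the AI P lines GS4, GS9 and AI9. The 2 lowest lines were thus both AI P, the third AI P line stood among the highest 5, and the groups overlapped. Myl9 ran from 43.3 FPKM in GS4 to 172 FPKM in AN3, and the ratio of Acta2 to Myl9 kept between 2.33 (GS9) and 3.77 (AI10) while Acta2 itself varied 5.31-fold.

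Transgelin, Tagln, an actin-binding protein and a standard marker of smooth muscle differentiation, spanned a wider range than Acta2 from lowest to highest line, although its SD over lines in log2 units was smaller (0.65 compared with 0.70). Tagln was at 264, 325, 489 and 491 FPKM in the AN F lines AN20, AN9, AN15 and AN1, and at 357, 381, 491, 699 and 866 FPKM in the AN P lines AN2, AN5, AN7, AN3 and AN6. It was at 408, 448, 655 and 725 FPKM in the AI F lines AI3, AI7, GS32 and AI10, and at 139, 348 and 637 FPKM in the AI P lines GS4, GS9 and AI9. GS4 was lowest and AN6 highest, a 6.22-fold span. The calponins, which bind actin and restrain myosin, followed Tagln: Cnn1 (8.39 to 44.3 FPKM) with r of 0.970 and Cnn2 (68.7 to 271 FPKM) with r of 0.969. The ratio of Tagln to Cnn1 kept between 14.0 and 21.3.

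The tropomyosins lie along the actin filament and gate the access of myosin. Tpm1 was the most abundant of the 10 genes per length, at a mean of 645 FPKM ± 279 (SD, n = 16). Tpm1 was at 384, 472, 579 and 648 FPKM in the AN F lines AN20, AN9, AN1 and AN15, and at 475, 509, 517, 836 and 1451 FPKM in the AN P lines AN5, AN2, AN7, AN3 and AN6. It was at 477, 611, 770.5 and 856 FPKM in the AI F lines AI3, AI7, GS32 and AI10, and at 200.3, 740.0 and 796 FPKM in the AI P lines GS4, GS9 and AI9. GS9, near the bottom for Acta2, was thus among the higher lines for Tpm1, and AN6 stood far above every other line. Tpm2 ranged from 31.5 FPKM in GS4 to 125 FPKM in GS32.

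Thy1, a surface glycoprotein used to mark fibroblasts, ran from 13.8 FPKM in GS4 to 63.1 FPKM in GS32. Lysyl oxidase, Lox, which cross-links collagen and elastin, had the largest relative span. Lox was at 43.1, 51.7, 57.3 and 58.8 FPKM in the AN F lines AN9, AN15, AN20 and AN1, and at 37.1, 44.9, 45.2, 62.1 and 106 FPKM in the AN P lines AN5, AN6, AN2, AN7 and AN3. It was at 32.3, 56.4, 78.5 and 90.5 FPKM in the AI F lines AI7, AI3, AI10 and GS32, and at 12.2, 32.4 and 77.2 FPKM in the AI P lines GS9, GS4 and AI9. The lowest line was therefore GS9 and not GS4, and the highest, AN3, was 8.72 times higher. Periostin, Postn, a secreted matrix protein that binds collagen, followed Lox with r of 0.919 and ran from 9.88 FPKM in GS9 to 47.7 FPKM in GS32.

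**Figure D2:**
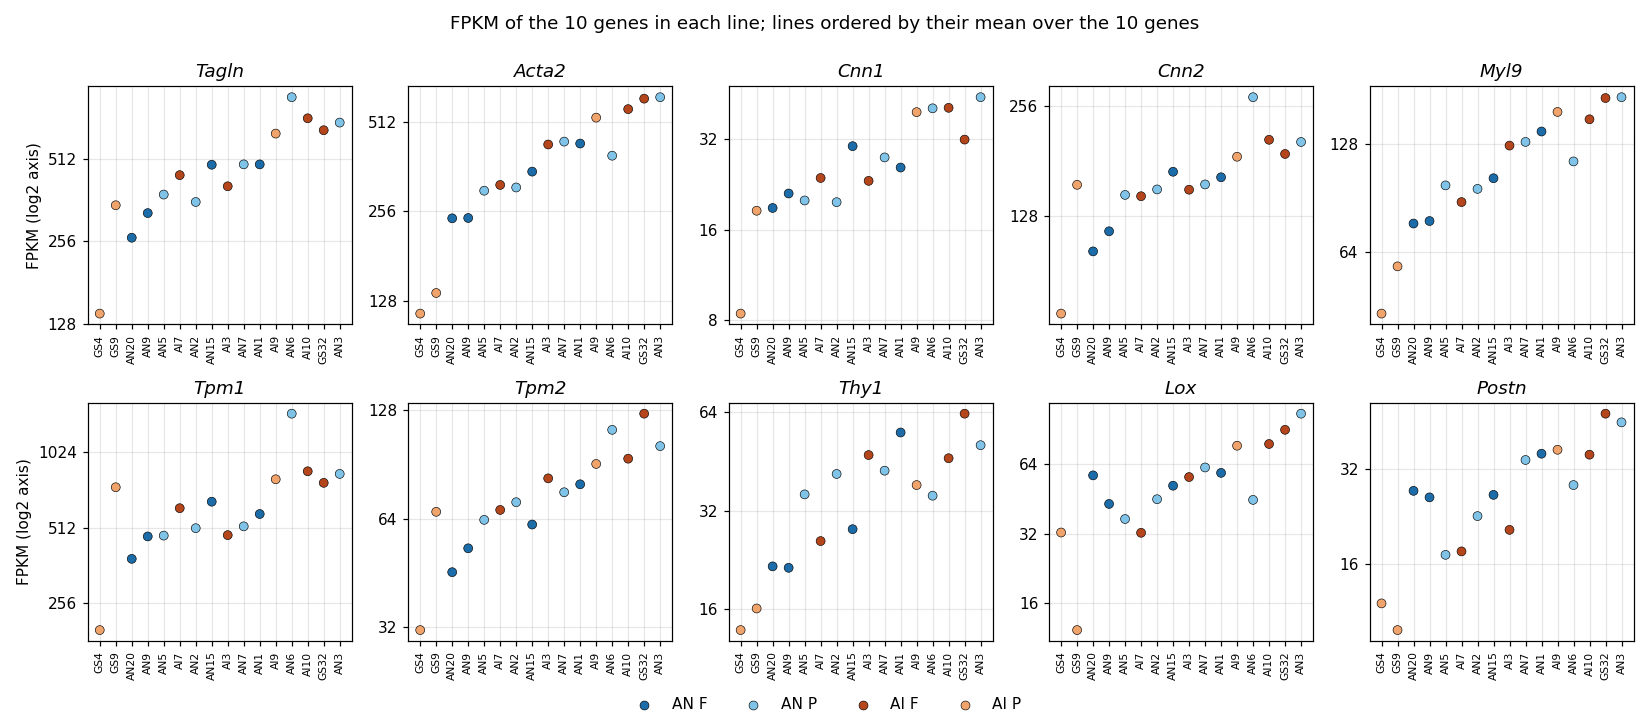
FPKM (log2 axis) of each of the 10 genes in each of 16 lines, 1 panel per gene and 1 point per line, coloured by group, with lines in every panel ordered by their mean over the 10 genes. GS4 is the lowest point in 8 panels and GS9 in 2 (Lox and Postn), and AN6 is the highest for Tagln, Cnn2 and Tpm1.

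GS4 was the lowest line. By the mean of log2(FPKM + 1) over the 10 genes, GS4 stood at 5.42, GS9 at 5.99, AN20 at 6.26, AN9 at 6.33, AN5 at 6.46 and AI7 at 6.48. GS4 was lowest for 8 genes and within the lowest 3 for all 10, while GS9 was lowest for Lox and Postn and had ranks from 1 to 11. AI7 had been named as a low line as well, but AN20, AN9 and AN5 were lower. AI7 and AN5 differed by far less than the pooled SD within groups of 0.50. AI7 was the lowest of its own group for 7 of the 10 genes. The highest line was AN3 at 7.37, followed by GS32 at 7.33, AI10 at 7.23, AN6 at 7.16 and AI9 at 7.15, and each of these neighbours differed by less than the SD within groups. AN3 was highest for 4 genes and within the highest 3 for all 10, AN6 was highest for 3 and GS32 for 3. Each single-line value rests on 1 library.

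The mean over the 10 genes was 6.56 ± 0.32 (SD, n = 4) in AN F, 6.88 ± 0.39 (n = 5) in AN P, 6.95 ± 0.41 (n = 4) in AI F and 6.19 ± 0.88 (n = 3) in AI P. All 4 groups overlapped.

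**Figure D3:**
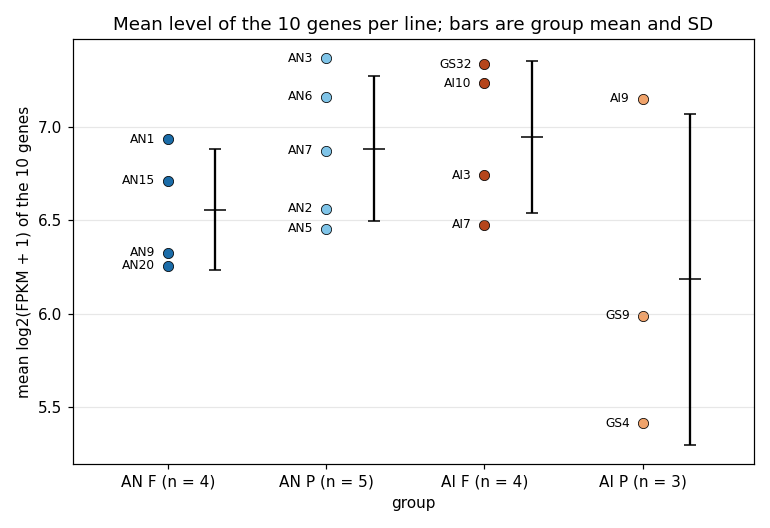
Mean log2(FPKM + 1) over the 10 genes in each line (points, named), by group, with the group mean and SD beside them. AI P holds the 2 lowest lines, GS4 (5.42) and GS9 (5.99), together with AI9 at 7.15, and every group overlaps the others.

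The set parted most at 2 lines, GS9 and AN6. Tagln, Cnn1, Cnn2, Tpm1 and Tpm2 had r of 0.862 to 0.970 among themselves, Acta2, Myl9 and Thy1 had 0.919 to 0.988, and Lox and Postn had 0.919, but between the first 5 genes and Lox and Postn r was only 0.232 to 0.767 (median 0.537). These blocks were seen in the values and have no test. The ratio of Tpm1 to Lox was 60.7 in GS9 and 32.3 in AN6, compared with 6.19 to 18.9 in the other 14 lines. Likewise the ratio of Tpm1 to Acta2 was 5.42 in GS9 and 3.69 in AN6, compared with 1.11 to 1.95 elsewhere, and that of Cnn2 to Lox was 12.8 and 6.04, compared with 1.78 to 4.48. GS9 reached this ratio with low Lox, and AN6 with high Tpm1. Without AN6 and GS9, a setting chosen after seeing the data, r between the same 2 sets was 0.703 to 0.832, and the median over all 45 pairs was 0.895.

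**Figure D4:**
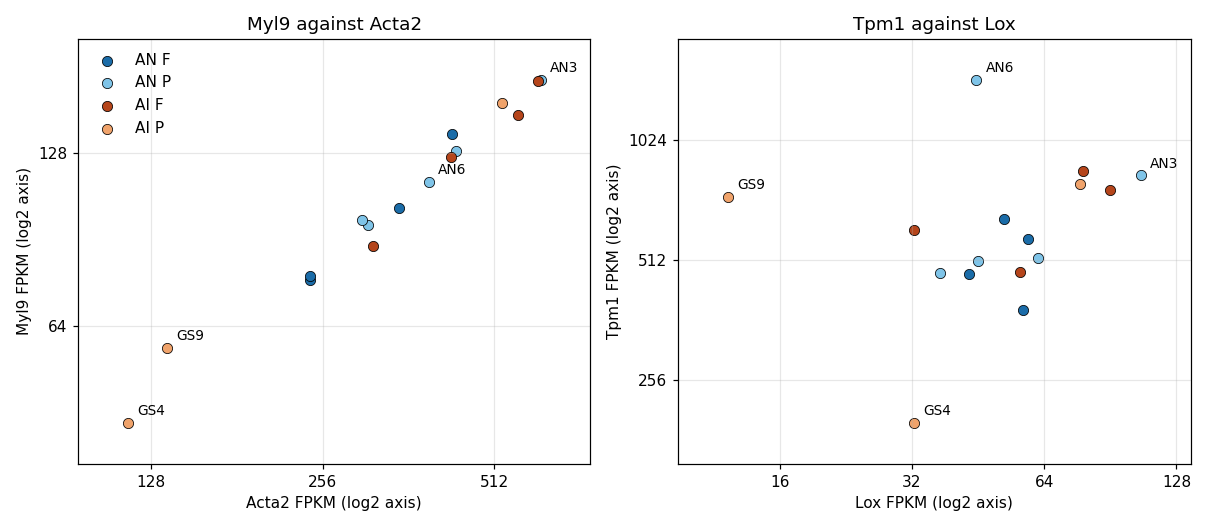
FPKM of Myl9 against Acta2 (left) and of Tpm1 against Lox (right), log2 axes, 1 point per line, coloured by group, with 4 lines named. Acta2 and Myl9 keep to 1 band in all 16 lines, whereas in the right panel GS9 and AN6 have the highest Tpm1 for their level of Lox (ratios of 60.7 and 32.3).

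Genes outside the 10 followed both ends. The lists below hold genes of known roles, chosen with earlier results of these data known. Of 28 other contractile genes tested, 14 had a higher r with Tagln, Cnn1, Cnn2, Tpm1 and Tpm2 and 14 with Lox and Postn. Of 37 other fibroblast genes, 35 had a higher r with Lox and Postn (median r 0.846, compared with 0.571 for the first 5 genes), and of 10 early mesoderm markers, 9 had a higher r with the first 5 genes (median 0.614, compared with 0.136). Over all tested genes, 51.6% had a higher r with the first 5 genes. Both ends were defined on these values and parted most at GS9 and AN6. These counts and the ranks of the 2 lines below are therefore not separate results, and the counts were not repeated without the 2 lines. GS9 was within the lowest 3 lines for 35 of the 37 fibroblast genes (94.6%), compared with 29.1% of all tested genes, and vimentin (Vim), an intermediate filament of mesenchymal cells, was at 179 FPKM in GS9 with a median of 438 FPKM over lines. AN6 was within the highest 3 lines for 8 of the 10 early mesoderm markers and for 2 of the 37 fibroblast genes, compared with 29.1% of all tested genes. Among these mesoderm markers AI10 was the highest line for Mixl1, Eomes, Evx1 and Snai1, AN6 for T, Gsc and Hand1, and other lines for the rest. The set did not part in AI10. Its mean z score was 0.95 for the first 5 genes and 0.82 for Lox and Postn. The primitive streak factor T (brachyury) was at 257 FPKM in AN6 and 103 FPKM in GS9, with a median of 41.9 FPKM. Of 10 cardiac and skeletal muscle markers tested, AN6 was within the highest 3 lines for 6, among them skeletal actin Acta1 at 28.0 FPKM and the troponin gene Tnnc1 at 20.8 FPKM, while Myh6 and Myh3 were lowest in AN6. For the 28 other contractile genes, AN6 was within the highest 3 lines for 9 (32.1%, near the 29.1% of all tested genes) and GS9 within the lowest 3 for 17 (60.7%). The cytoplasmic myosin light chain Myl6, which was high in both lines, was at 1048 FPKM in AN6 and 902 FPKM in GS9 with a median of 626 FPKM. The summed level of the 13 early mesoderm markers in the table ran from 39.1 to 134 FPKM in AN F, 42.3 to 323 FPKM in AN P, 30.2 to 243 FPKM in AI F and 30.5 to 149 FPKM in AI P, and none was at 0 in every line. The part of such cells in the levels of the 10 genes was not tested.

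**Figure D5:**
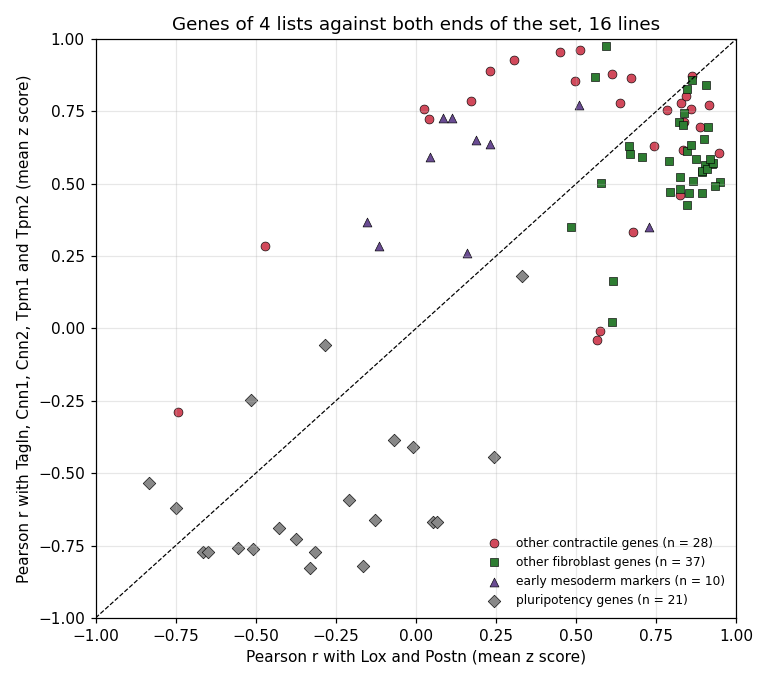
Pearson r over 16 lines of each gene of 4 lists with the mean z score of Lox and Postn (horizontal axis) and of Tagln, Cnn1, Cnn2, Tpm1 and Tpm2 (vertical axis), with a dashed line where both are equal. Of the fibroblast genes, 35 of 37 lie below the line, and of the early mesoderm markers 9 of 10 lie above it.

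Among all tested genes that are not in the set, the 8 with a pattern most like the mean z score of the 10 were Wls (r 0.978), Pmepa1 (0.977), Cald1 (0.972), Ccdc80 (0.970), Ghr (0.968), Snx7 (0.966), Prss23 (0.966) and Timp3 (0.965). Cald1 encodes caldesmon, which binds actin, myosin and tropomyosin, and ran from 55.3 FPKM in GS4 to 212 FPKM in GS32. Timp3, an inhibitor of matrix proteases, ran from 15.1 FPKM in GS4 to 71.3 FPKM in GS32. Wls, which carries Wnt proteins to the cell surface, ran from 10.5 FPKM in GS4 to 48.8 FPKM in AN6. All 8 were lowest in GS4. The 3 least like were BC055324 (r -0.94), Dap3 (-0.92) and Mrpl45 (-0.92), the last 2 of them mitochondrial ribosomal proteins, and all 3 were highest in GS4. The mean z score of the 10 was -2.16 in GS4 and -1.08 in GS9, the next lowest line. Extremes in GS4 therefore follow in part from how these genes were picked.

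Most contractile and matrix genes outside the set shared its pattern. Of the 101 tested from 4 lists, 73 had r of at least 0.7 with the mean z score of the 10 (median 0.802), compared with 9.41% of all tested genes (median -0.13). The fibroblast list had a median r of 0.796 with 32 of 37 at 0.7 or more, other contractile genes 0.838 with 20 of 28, lysyl oxidase relatives and matricellular genes 0.829 with 11 of 17, and regulators such as Srf, the Tead factors and the TGF-beta pathway 0.723 with 10 of 19. Not all actins moved alike. Actb and Actg1, the cytoplasmic actins of every cell, had r of only 0.292 and 0.548, were lowest in GS9 (697 and 947 FPKM) and highest in AI3 (1351 and 1661 FPKM).

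Pluripotency genes ran the other way. Of the 21 in the table, 20 had a negative r with the 10 genes (median -0.60), compared with 57.6% of all tested genes. The strength varied within the list, from -0.82 to 0.36, and Nanog was at only -0.22. Sox2 and the member mean had r of -0.80 over 16 lines, -0.57 without GS4 and GS9, -0.47 within AN and -0.94 within AI, and for Pou5f1 these values were -0.74, -0.46, -0.24 and -0.88. Tdgf1, an embryonic co-receptor of Nodal, ranged from 506 FPKM in AI3 to 1134 FPKM in GS9. Extraembryonic endoderm markers had a median r of 0.639 over 12 tested, and 8 of the 20 listed had a mean under 0.5 FPKM. The 12 did not move as 1, with r of at least 0.7 for 6 and a negative r for 2. They ran from 0.956 for Sparc, which is also on the fibroblast list, to -0.46 for Lama1. Adipocyte progenitor and adipocyte markers, which would mark the donor cells, had a median r of 0.362 over 11 (-0.66 to 0.689, 4 negative). Cardiac and skeletal muscle markers had 0.055 over 10 (-0.75 to 0.709, 5 negative). Blood and endothelial markers had -0.36 over 6 (-0.62 to 0.663, 4 negative), with Hbb-b1 listed at 0 in every line. The genes of each of these lists thus went both ways. The summed fibroblast list of 37 genes ran from 1846 to 3435 FPKM in AN F, 2334 to 4255 FPKM in AN P, 2226 to 4722 FPKM in AI F and 1140 to 3678 FPKM in AI P, with no gene at 0 in every line.

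Xist, the noncoding RNA of the inactive X chromosome in female cells, moved with the set. It was at 3.47, 3.98, 4.48 and 4.89 FPKM in the AN F lines AN9, AN20, AN15 and AN1, and at 4.83, 5.49, 6.14, 6.66 and 6.78 FPKM in the AN P lines AN5, AN6, AN2, AN7 and AN3. It was at 4.24, 6.89, 7.64 and 9.73 FPKM in the AI F lines AI7, AI10, AI3 and GS32, and at 4.27, 4.75 and 6.22 FPKM in the AI P lines GS4, GS9 and AI9. No line was at 0, and AN P lay above AN F except for AN5, which lay below AN1. Its r with the member mean was 0.686 over 16 lines, 0.747 without GS4 and GS9, 0.720 within AN and 0.796 within AI. The member mean had r of 0.037 with relative depth, -0.70 with the sum of FPKM and -0.37 with passage (rho 0.056). Without GS4 and GS9 these were 0.422, -0.64 and 0.342, so that the sign with passage turned. The part of female cells, of the FPKM sum and of passage in the levels of the 10 genes was not tested.

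The first comparison asked whether full and partial AN lines differ. Of the 10 genes, 9 were lower on average in AN F, and the differences of AN F minus AN P in log2(FPKM + 1) ran from -0.49 ± 0.20 (SE, n = 4 and 5) for Tpm2 to 0.033 ± 0.24 for Postn, with a median of -0.40, where all tested genes had a median of -0.015. Every gene overlapped between the groups. Without overlap, AN F was above AN P for 0.584% of tested genes and below it for 0.713%. In limma's test 0% of all tested genes passed an adjusted p of 0.05, and at an unadjusted p under 0.05, 3.02% were higher and 2.99% lower in AN F. Of the 101 other contractile and matrix genes, 91 had a lower mean in AN F (median -0.22), compared with 7071 of all 13185 tested genes. Since 73 of the 101 shared the pattern of the set, the 91 are not independent. Of the 101, 1 was called lower and 1 higher at the unadjusted threshold and 0 at the adjusted one (smallest adjusted p 0.636 in limma). Those 2 were Csrp2, a LIM protein of smooth muscle, at -0.20 ± 0.071 (unadjusted limma p 0.0188), and Smad4, the common partner of TGF-beta signalling, at 0.17 ± 0.066 (unadjusted limma p 0.0280). In each direction 1 of 101 is a smaller share than the 3.02% and 2.99% of all tested genes. Without AN1 the count of 2 became 28. Xist was lower in AN F by 0.42 ± 0.12 (unadjusted limma p 0.00524, adjusted p 0.636).

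The second comparison asked the same of the AI lines. All 10 genes had a higher mean in AI F, from 0.43 ± 0.49 (SE, n = 4 and 3) for Tpm1 to 1.19 ± 0.53 for Acta2, with a median difference of 0.76, where all tested genes had a median of -0.040. All 10 overlapped between the groups, since AI9 lay above at least 1 AI F line for every gene. Without overlap, AI F was above AI P for 1.70% of tested genes and below it for 3.19%. In limma's test 0% passed an adjusted p of 0.05, and 3.47% were higher and 4.30% lower at an unadjusted p under 0.05. Of the 101 other contractile and matrix genes, 91 had a higher mean in AI F (median 0.68), compared with 5763 of all 13185 tested genes. As in AN, these 91 are not independent. Of the 101, 16 were called higher and 0 lower at the unadjusted threshold, compared with 3.47% and 4.30% of all tested genes. At the adjusted threshold 0 were called (smallest adjusted p 0.521 in limma). The fibroblast list had all 37 means higher and 7 called, among them S100a4 at 1.17 ± 0.41 (unadjusted limma p 0.0228) and Vim at 1.06 ± 0.37 (unadjusted limma p 0.0240). Srf, the factor that binds CArG boxes, was at 0.44 ± 0.18 (unadjusted limma p 0.0395), and Tgfbi, a matrix protein induced by TGF-beta, at 1.00 ± 0.31 (unadjusted limma p 0.0131). The count of 16 became 0 without GS4, 0 without GS9, 1 without AI3, 3 without AI10, 2 without GS32, 41 without AI7 and 75 without AI9, and 0 without GS9 and GS32 together, which was chosen after seeing the data. The mean difference over the 10 genes, 0.76, became -0.33 without the older lines GS4, GS9 and GS32. This setting leaves AI9 alone in AI P. The part of older or newer derivation in the difference between AI F and AI P was not tested.

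The members' differences thus had opposite signs in AN and AI for 9 of the 10 genes, but the difference between both effects was not tested, since the genes were chosen on these lines.

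The third comparison set AI against AN with F or P as a term. The differences of AI minus AN ran from -0.37 ± 0.28 (SE, n = 7 and 9) for Postn to 0.064 ± 0.25 for Tpm2, with a median of -0.13, and each was smaller than 2 times its SE. In limma's test 0% of all tested genes passed an adjusted p of 0.05, and 1.30% were higher and 2.02% lower in AI at an unadjusted p under 0.05. Of the 101 other contractile and matrix genes, 1 was called, P4ha1, a subunit of collagen prolyl hydroxylase, at 0.29 ± 0.13 (unadjusted limma p 0.0436, adjusted p 1.00).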

How the data were processed

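The authors mapped single-end reads of 50 bases to mm9 and deposited FPKM values with 1 row per gene name. The submitters' processing notes name TopHat2 2.1.0, HTSeq and Cufflinks 2.2.1, and the normalization between libraries is not given in the sources used here. FPKM holds no counts, so no counting interval was computed. All 16 columns of the table were mapped to samples by title. Values were transformed to log2(FPKM + 1), and the 13185 of 22552 genes whose mean over lines reached 0.5 FPKM were fitted with limma 3.58.1 (R 4.3.3, mean-variance trend, Benjamini-Hochberg adjustment over all 13185). AN F and AN P were fitted on the 9 AN lines, AI F and AI P on the 7 AI lines, and AN and AI on all 16 with F or P as a term. F and P come from the study's text by line name. The study says it sequenced all AN and AI lines together, the earlier AI lines included, and no source names batches. p-values measure the spread between lines.

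The members, the 11 other gene lists and the tests were chosen with earlier results of these data known. Besides the members, genes are named if they were the 8 most or 3 least like the members' mean z score, the 3 highest or, by unadjusted p, the 2 leading genes of a list in the AN or AI comparison, or Xist. Sox2, Nanog, Myh6, Myh3, P4ha1, Mixl1, Evx1 and Gsc were named after their values were seen. The limma step was tested on simulated data before use. Correlations, spans, ratios and promoter matches used Python 3.11.15 (numpy 2.4.6, pandas 2.3.3). Gene positions and transcript windows came from GENCODE vM1 (mm9), and promoter sequences from RefSeq (GRCm38.p6). Alternatives were other pseudocounts, filters, scalings, line sets and fits.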

Additional observations from a re-analysis of the deposited data

Results flagged for a closer look

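Among groups of 4 or 5 lines, 45 were searched for a line far from the rest of its group by Dixon's criterion, of which about 1 in 20, or 2.25, would be found by chance, and 2 were found. Postn in AN F was highest in AN1, at 35.7 FPKM, with the other 3 lines between 26.0 and 27.2 FPKM. Pou5f1 in AN F was lowest in AN20, at 712 FPKM, with the other 3 lines between 813 and 818 FPKM, and AN20 was also the third lowest line for the mean of the 10 genes.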

How the results depend on the processing

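The median r of 0.834 over the 45 pairs kept between 0.742 (AN lines only) and 0.895 (without AN6 and GS9, chosen after seeing the data) over 29 alternatives, with 0.762 to 0.853 when 1 line was left out. The same 5 lines were lowest in all 4 alternatives. The mean difference over the 10 genes ran from -0.45 to -0.21 for AN F minus AN P when 1 line was left out, from 0.38 (without GS4) to 1.24 (without AI9) for AI F minus AI P, and from -0.27 to 0.096 for AI minus AN, which changed sign without GS4. AI F minus AI P became -0.33 with newly derived lines only, where AI9 stands alone for AI P. The count of the 101 list genes past an unadjusted p of 0.05 was, for AN, 2 as reported, 1 after quantile normalization, 1 in a fit of all 16 lines and 1 to 28 with 1 line left out. For AI it was 16 as reported, 9 with no filter, 6 with passage as a term, 58 in a fit of all 16 lines, 0 without GS9 and GS32 and 0 to 75 with 1 line left out (41 without AI7), and for AI minus AN it was 1 as reported, 2 after quantile normalization, 3 without GS9 and GS32 and 0 to 4 with 1 line left out. The cause was not tested. At adjusted p of 0.05 the count was 0 under every alternative run. No paired analysis was possible because replicate numbers were given in record order and name a line only. The depth of single libraries is known only relative to AN1.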
